A study of Marchantia polymorpha and Arabidopsis thaliana and Oryza sativa Japonica Group with 116 samples.

Results

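The genes described here are 150 rice transcripts that were high in wild-type seedlings before and shortly after salt and low after a day of it. They were chosen from CPM (a gene's counts scaled to the same total in every library) in the wild type NB. The means of the 0 h and 2 h libraries (3 each) were compared with the mean of replicates 1 and 2 at 24 h. Of 37852 genes in the rice table, 17609 had a largest NB mean of at least 5 CPM after 5 identifiers were dropped. The score was the smaller of the log2 falls from 0 h to 24 h and from 2 h to 24 h, with 1 CPM added to each mean, and the 150 highest scores made the set. The 3 lowest scores inside the set were 1.28, 1.27 and 1.26, and the 3 highest outside it were 1.26, 1.26 and 1.25. The NB values at 0 h, 2 h and 24 h (replicates 1 and 2) are therefore a description, and fits on NB are given below as such. The tests that bear on the members use xlg1,4, which had no part in the choice.

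Rice seedlings aged 7 days had been grown on plates of diluted MS medium in 16 h light and 8 h dark. They received 100 mM NaCl for 0, 2 or 24 h and total RNA was taken from seedlings of NB, the wild type, and of the G-protein mutant labelled xlg1,4. By the labels each genotype and time had 3 libraries, and the column of xlg1,4 24 h replicate 3 held no counts, which left 17 libraries of 14207421 to 21422709 counts. No group was mock-treated, so salt cannot be told apart from elapsed time or handling, and fewer cells of a type cannot be told apart from less RNA per cell. The series describes its replicates as biological, and how they were separated is not stated in the labels. The files do not pair rice identifiers with names. Members are therefore given by identifier alone, no role is attached to them, and neither the mutated genes nor tissue markers were checked.

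Heterotrimeric G proteins pass signals from the cell surface, with an α subunit that binds GTP and a βγ pair. Plants also have extra-large G proteins, α-like subunits with a long amino-terminal extension, and the mutant's label names members of that family. Salt acts on plants first as an osmotic stress and later through sodium that accumulates in the shoot. Transcript changes after minutes to hours and those after a day are accordingly often studied apart.

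Of the 17 libraries, 3 were set apart: NB 24 h replicate 3, xlg1,4 0 h replicate 3 and xlg1,4 2 h replicate 3. Each stood nearest to a library of another label. Some libraries that were kept did so too. NB 24 h replicate 2 was nearest to xlg1,4 24 h replicate 1. Nearest to a library set apart were xlg1,4 0 h replicate 2 and both xlg1,4 24 h libraries. In NB 24 h replicate 3, 148 of 150 members were above both other NB 24 h libraries (32.9% of all 17609 genes), and 146 were closer to xlg1,4 at 0 h (replicates 1 and 2) than to the other NB 24 h libraries (74.7%). The NB 0 h mean was likewise closer than those libraries in 145 members, and xlg1,4 at 0 h was closer than NB at 0 h in 98. Shares over all genes were not counted for the last 2. The members were chosen for low values in NB 24 h replicates 1 and 2. That choice favours a higher reading in replicate 3, so the members' counts alone do not set this library apart. In xlg1,4 2 h replicate 3, 143 members were below both other xlg1,4 2 h libraries (39.1%), and 142 were closer to xlg1,4 at 24 h (73.2%). In xlg1,4 0 h replicate 3, 97 members were closer to xlg1,4 at 2 h than to the other 0 h libraries, a share near the 60.8% of all genes, and the median member there stood at 48.9 CPM. Over all genes tested, the library nearest to NB 24 h replicate 3 by Spearman correlation was xlg1,4 0 h replicate 2 (rho 0.992). Nearest to xlg1,4 0 h replicate 3 was xlg1,4 2 h replicate 1 (rho 0.988). Nearest to xlg1,4 2 h replicate 3 was xlg1,4 24 h replicate 2 (rho 0.990). By the mean correlation with a group, xlg1,4 0 h replicate 3 was closest to NB 2 h (rho 0.987, against 0.979 with its own label). In the order of the table's columns, each of the 3 stands immediately before the group that holds its nearest library, and the last column is the empty one. Whether the headers stand 1 column away from their libraries was not tested, and the labels were kept. Fits are given with all 17 libraries and with the 14 that remain without these 3, a choice made after the data were seen. Means of xlg1,4 at 0 h and 2 h and of NB at 24 h are over replicates 1 and 2 unless given as labelled, which means over every library of the label.

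**Figure D1:**
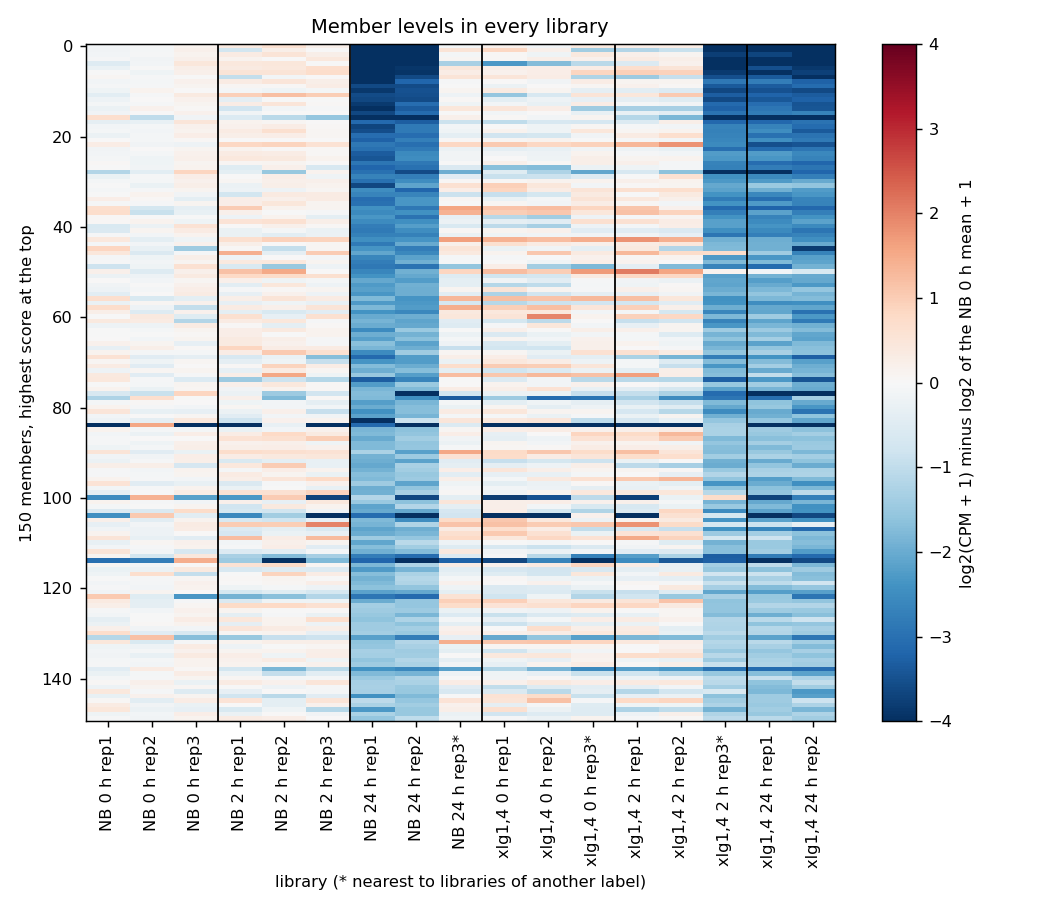
Level of each of the 150 members (rows, highest score at the top) in each of the 17 libraries (columns, as labelled), as log2(CPM + 1) minus that of the NB 0 h mean. Blue is lower and red higher. The columns of NB 24 h replicates 1 and 2, xlg1,4 24 h and xlg1,4 2 h replicate 3 are blue in nearly every row, while NB 24 h replicate 3 resembles the 0 h columns.

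The members held a large part of each early library. Together they took 5.88% to 7.78% of all counts in the 6 NB libraries at 0 h and 2 h, and 0.874% and 1.26% in NB 24 h replicates 1 and 2. The mutant showed the same pattern, which had no part in choosing the genes: 5.54% to 6.19% in replicates 1 and 2 at 0 h and 2 h, against 1.39% and 1.07% at 24 h. The 3 libraries set apart held 5.80% (NB 24 h replicate 3), 6.87% (xlg1,4 0 h replicate 3) and 1.35% (xlg1,4 2 h replicate 3). The median member stood at 43.5 to 59.4 CPM in the early NB libraries and at 49.1 to 52.5 CPM in replicates 1 and 2 of xlg1,4 at 0 h and 2 h. It stood at 9.88 and 10.1 CPM in NB and at 11.1 and 9.71 CPM in xlg1,4 at 24 h, below all of these. In the other 3 libraries it stood at 54.0 CPM (NB 24 h replicate 3), 48.9 CPM (xlg1,4 0 h replicate 3) and 12.6 CPM (xlg1,4 2 h replicate 3), so early and late libraries overlapped as labelled.

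**Figure D2:**
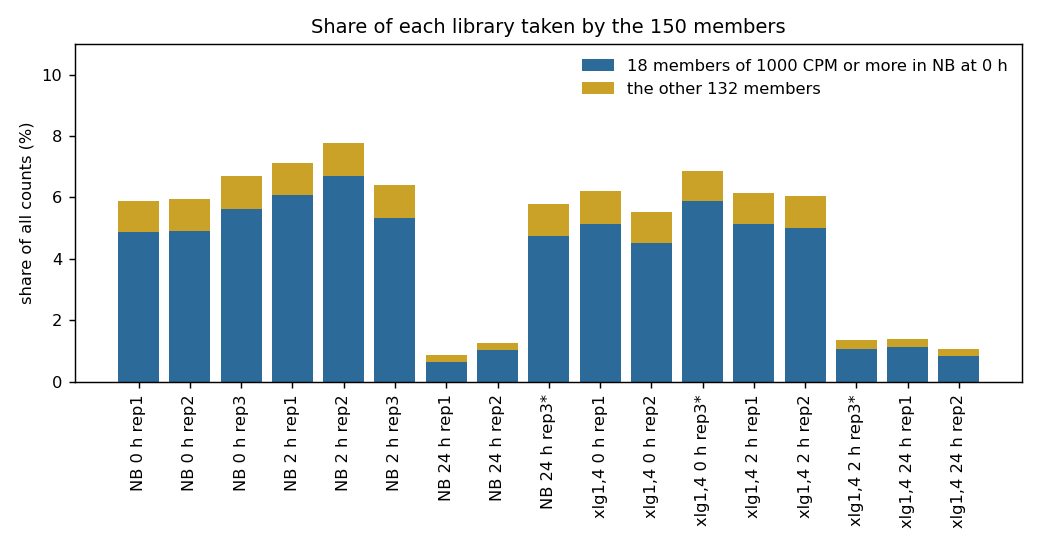
Share of all counts (%, from 0) held by the 150 members in each library, split into the 18 members of 1000 CPM or more in NB at 0 h (blue) and the remaining members (yellow). Bars of NB 24 h replicates 1 and 2, of xlg1,4 24 h and of xlg1,4 2 h replicate 3 lie at 0.874% to 1.39%, and the others at 5.54% or more.

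Most of those reads came from few genes. The 18 members of at least 1000 CPM in NB at 0 h made up 5.14% of NB counts at 0 h and 0.84% at 24 h, and 4.84% and 0.979% in xlg1,4. As labelled these were 5.14% and 2.14% in NB and 5.19% and 0.979% in xlg1,4. Of the 20 genes with the most reads at 0 h, 9 were members in NB and 9 in xlg1,4, and at 24 h none of the top 20 was a member in either genotype. Among the top 100 genes the members numbered 18 in both genotypes at 0 h and 2 in both at 24 h. As labelled, NB at 24 h had 3 members in the top 20 and 14 in the top 100, and the other counts were the same. CPM is not corrected for gene length, so this order is one of reads and not of transcripts.

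The gene with the highest score, Os09g0346500, stood at 4910, 5025 and 5787 CPM in NB at 0 h, at 6714, 8037 and 6061 CPM at 2 h, and at 86.2 and 145 CPM in replicates 1 and 2 at 24 h. In xlg1,4 it was at 5898 and 4788 CPM at 0 h, 6358 and 6379 CPM at 2 h and 181 and 162 CPM at 24 h. None of these early libraries came near a late one. In the remaining libraries it read 4971 CPM (NB 24 h replicate 3), 6900 CPM (xlg1,4 0 h replicate 3) and 189 CPM (xlg1,4 2 h replicate 3). With 14 libraries its change in xlg1,4 from 0 h to 24 h was a log2 of -5.04 (SE 0.29, edgeR adjusted p = 1.3e-07), and with 17 libraries -5.16 (SE 1.61, adjusted p = 0.072).

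Os07g0178700 had the next highest score and a different course at 2 h. In NB it read 404, 419 and 510 CPM at 0 h, 266, 521 and 449 CPM at 2 h, and 7.23 and 18.9 CPM at 24 h. In xlg1,4 it read 791 and 510 CPM at 0 h, 197 and 239 CPM at 2 h, and 20.9 and 13.6 CPM at 24 h. The other libraries read 640 CPM (NB 24 h replicate 3), 170 CPM (xlg1,4 0 h replicate 3) and 22.0 CPM (xlg1,4 2 h replicate 3). In replicates 1 and 2 the mutant's 2 h libraries lay below its 0 h libraries, but 0 h replicate 3 lay below them, and the NB libraries of the 2 times overlapped. The log2 change at 2 h in xlg1,4 was -1.65 with 14 libraries (SE 0.39, edgeR adjusted p = 0.052) and -1.76 with 17 (SE 1.14, adjusted p = 0.66). The member on the adjacent line of the table read 156, 144 and 147 CPM in NB at 0 h and 2.92 and 11.4 CPM at 24 h, and at 207 and 183, 54.1 and 77.8, and 13.6 and 6.74 CPM in xlg1,4 at 0 h, 2 h and 24 h.

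The label "lost" held for few of the 150 in the literal sense. In NB, 14 members fell below a mean of 1 CPM at 24 h, and 1 had no count in either 24 h library. The share left at 24 h, as a percentage of the mean of 0 h and 2 h, had a median of 19.3% and ran up to 39.6%. It was under 10% in 31 members, 10% to 25% in 67 and 25% to 50% in 52, and 76 members still had at least 10 CPM. By the score, 59 fell at least 4-fold, 21 at least 8-fold and 6 at least 16-fold. In xlg1,4 the share left had a median of 21.4%, against 102% over all 17609 genes, and was under 10% in 28 members, 10% to 25% in 58, 25% to 50% in 60 and higher in 4. As labelled the median share left was 46.7% in NB, with NB 24 h replicate 3 in the mean, and 24.8% in xlg1,4, against 106% and 101% over all genes.

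**Figure D3:**
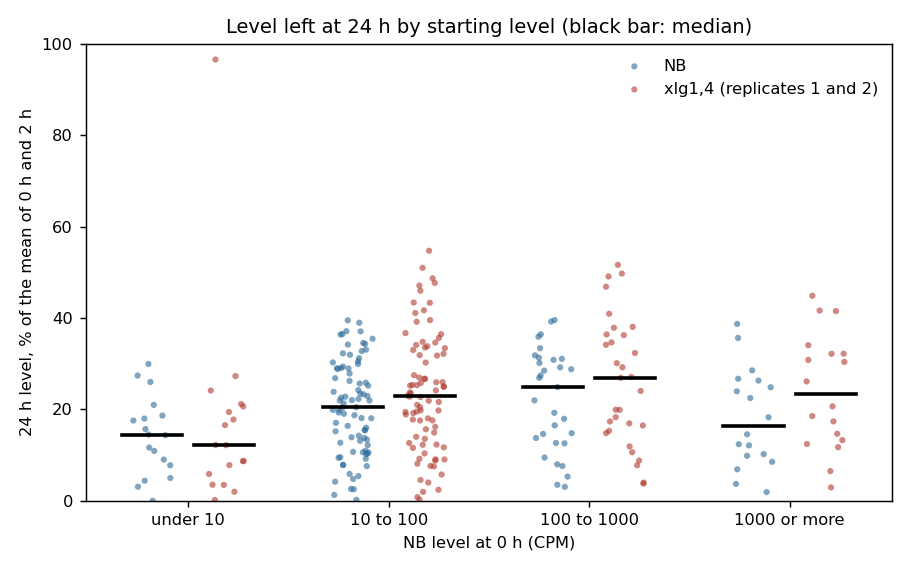
Level at 24 h as a percentage of the mean of 0 h and 2 h for each member (points), in NB (blue) and xlg1,4 (red, replicates 1 and 2), by NB level at 0 h. Black bars are medians, which lie between 12.2% and 26.9% in every class of both genotypes.

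The fall was tested in xlg1,4, whose libraries had no part in the choice. With the 14 libraries, edgeR's quasi-likelihood test (Benjamini-Hochberg adjustment over all genes, threshold 0.05) called 142 of 150 members lower at 24 h than at 0 h and 0 higher, where 13.1% of 25517 genes were called lower and 13.6% higher. Against 2 h, 137 members were called lower and 0 higher, with 9.48% of all genes called lower and 11% higher. The median log2 change of the members was -2.24 against 0 h and -2.16 against 2 h, and over all genes it was -0.01 in both. In 144 of 150 members both xlg1,4 24 h libraries lay below all 4 early libraries of replicates 1 and 2, as did 19.9% of all 17609 genes, and in 0 members both lay above them (27.9%). Both comparisons share the 24 h libraries. The count against 2 h depends on leaving out xlg1,4 2 h replicate 3, in which 143 members were below both other xlg1,4 2 h libraries. As that omission was made after the data were seen, this count is not independent of the members' values.

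With all 17 libraries as labelled, edgeR called 0 members and 0.0% of all 25482 genes in either xlg1,4 comparison. At an unadjusted p under 0.05, 137 members were lower at 24 h than at 0 h (14.3% of all genes) and 106 lower than at 2 h (7.4% of all genes). The members' median log2 changes were -2.15 and -1.75. DESeq2 on the same libraries called 102 of 137 members with an adjusted p lower than at 0 h (6.34% of all genes), and 1 of 130 lower than at 2 h (0.0296%). In xlg1,4 0 h replicate 3, 147 of 150 members were above both 24 h libraries (34.6% of all genes). Both 24 h libraries were below all 3 labelled 0 h libraries in 144 members (19.9% of all genes) and below all 3 labelled 2 h libraries in 48 (13.4%). Fitting only the 2 groups compared, with all their libraries, gave 140 members lower at 24 h than at 0 h (5.05% of all genes) and 0 of 149 lower than at 2 h (0.0%). Leaving out only NB 24 h replicate 3 gave 132 members called lower than at 0 h (6.98% of all genes) and 0 lower than at 2 h (0.0%), and leaving out only xlg1,4 2 h replicate 3 gave 70 called lower than at 2 h (3.15%).

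In NB, where the choice was made and no support can be drawn from a count, the 14 libraries gave 144 members called lower at 24 h than at 0 h (10% of all genes) and 142 lower than at 2 h (6.87%), with 0 called higher (10.4% and 7.0%). With all 17 libraries the counts were 1 (0.0118%) and 0 (0.0% of all genes), with 0 higher (0.00785% and 0.0%). At an unadjusted p under 0.05 these were 71 (6.68%) and 77 (6.3%), and DESeq2 called 9 (0.96% of all genes) and 10 (0.787%) of 137 members with an adjusted p. Without NB 24 h replicate 3 alone, edgeR called 137 (4.74%) and 124 (2.26%). In 146 members both NB 24 h libraries of the choice lay below all 6 early ones (8.74%).

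Os03g0284100 had the smallest p in xlg1,4, with 14 libraries, among members called against both early times. It read 33.7 and 35.4 CPM at 0 h, 58.6 and 57.1 CPM at 2 h and 0.943 and 1.27 CPM at 24 h in xlg1,4. In NB it read 28.8, 25.8 and 33.8 CPM at 0 h, 42.6, 42.4 and 48.9 CPM at 2 h, and 0.929 and 0.997 CPM at 24 h. These replicates lay close together and these late libraries were near 1 CPM in both genotypes. The other libraries read 36.1 CPM (NB 24 h replicate 3), 54.1 CPM (xlg1,4 0 h replicate 3) and 1.13 CPM (xlg1,4 2 h replicate 3). The log2 change in xlg1,4 was -5.02 from 0 h (SE 0.19, edgeR adjusted p = 4.6e-09) and -5.70 from 2 h (SE 0.19, adjusted p = 7.8e-10) with 14 libraries, and -5.26 (SE 1.60, adjusted p = 0.069) and -5.13 (SE 1.60, adjusted p = 0.33) with 17.

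Os03g0387900 came next in that order. It read 334 and 399 CPM at 0 h, 448 and 408 CPM at 2 h and 38.6 and 45.9 CPM at 24 h in xlg1,4, and 384, 383 and 423, then 415, 413 and 490, then 31.4 and 32.1 CPM in NB. The other libraries read 389 CPM (NB 24 h replicate 3), 421 CPM (xlg1,4 0 h replicate 3) and 37.4 CPM (xlg1,4 2 h replicate 3). Its change at 2 h in the mutant did not pass the threshold (edgeR log2 0.16, SE 0.12, adjusted p = 0.57 with 14 libraries and -0.43, SE 0.81, adjusted p = 0.89 with 17). From 0 h to 24 h the log2 change was -3.19 (SE 0.13, adjusted p = 8.7e-09) with 14 libraries and -3.25 (SE 1.05, adjusted p = 0.076) with 17.

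**Figure D4:**
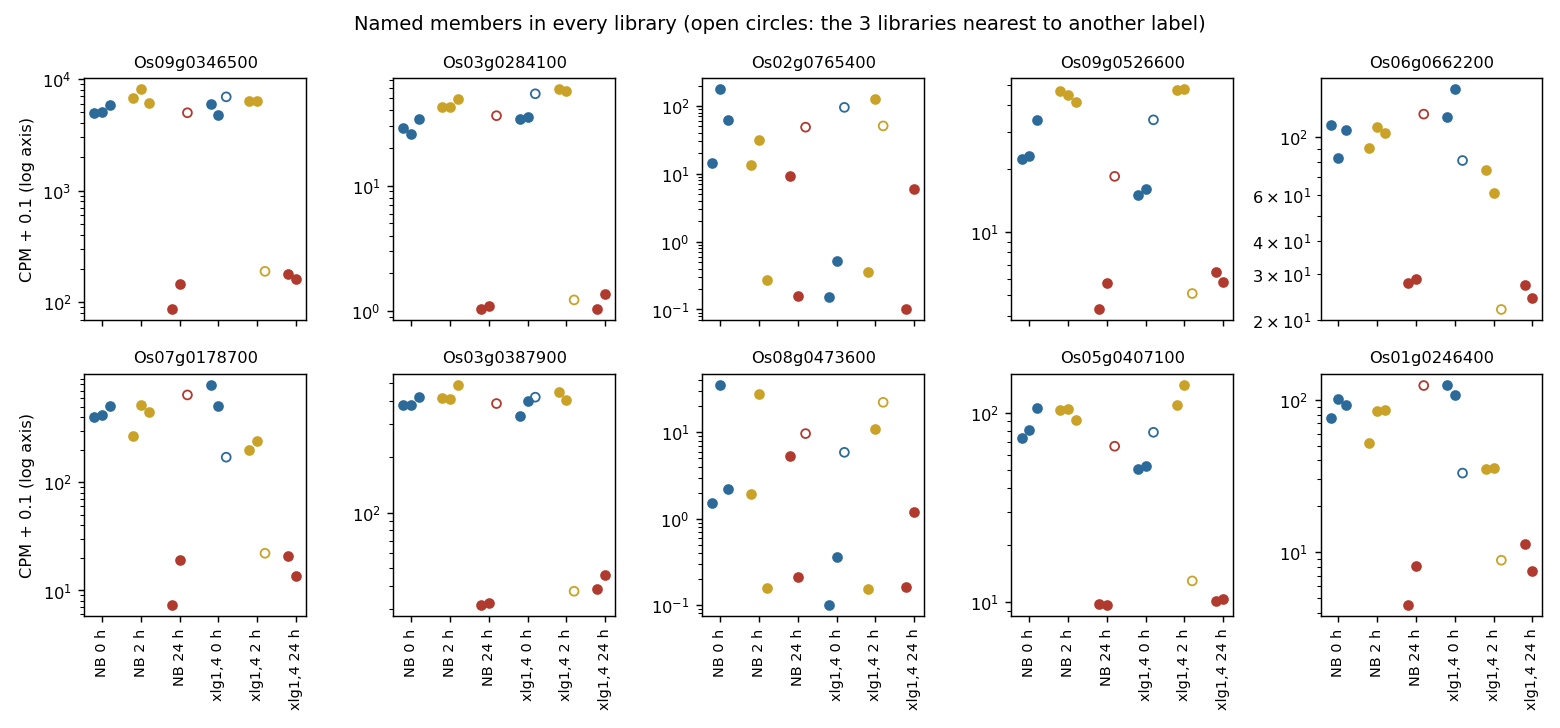
CPM plus 0.1 (log axis) of the 10 named members in every library, by genotype and time (blue 0 h, yellow 2 h, red 24 h). Filled circles are the 14 libraries and open circles the 3 that were set apart. In 8 of the 10 panels all filled red circles lie below all other filled circles of both genotypes, and in Os02g0765400 and Os08g0473600 they do not.

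The size of the fall in the mutant followed that in the wild type. The same score computed from replicates 1 and 2 of xlg1,4 placed 100 of the 150 members in its own top 150 of 17609 genes, which is 66.7% of either list. It placed 140 in the top 500 and 145 in the top 1000, with a median rank of 97.5. As labelled these were 100, 143 and 147 members, with a median rank of 101.5. The xlg1,4 score exceeded 1, a fall of at least 2-fold, in 124 members and in 1.52% of all genes, and as labelled in 119 and 1.20%. It was at least 4-fold in 54 members, 8-fold in 15 and 16-fold in 4. Across the 150 members Pearson's r between the scores was 0.727 and Spearman's rho 0.69, a description over genes that share libraries and were chosen on one of the axes, and as labelled they were 0.772 and 0.74. The xlg1,4 score was the smaller in 112 members and the larger in 38, with a median difference of -0.32. As labelled it was the smaller in 123, with a median difference of -0.53. Because NB values chose the members, this leaning is not independent of the choice and was not tested.

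**Figure D5:**
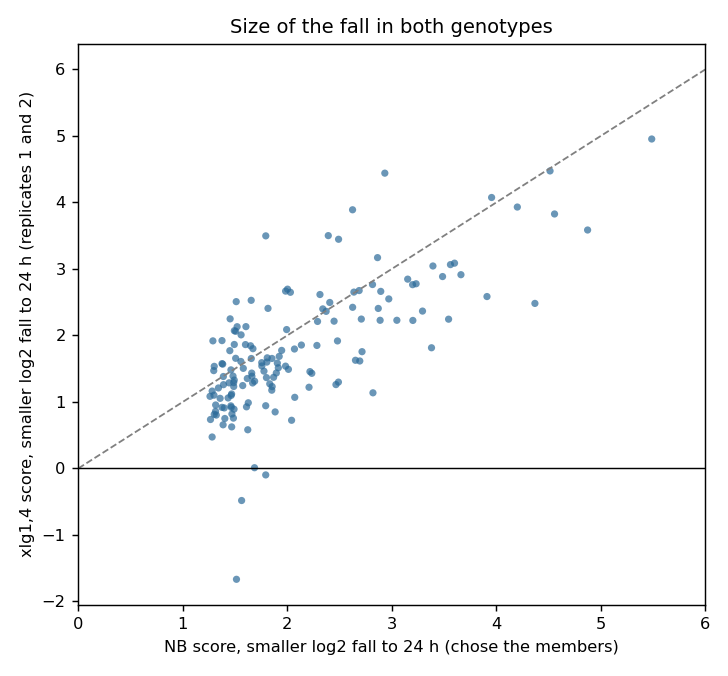
Score in xlg1,4 (y axis, log2, replicates 1 and 2) against the score in NB that chose the members (x axis, log2), 1 point per member, with the line of equal scores dashed. Most points lie above 1 on both axes, 112 lie below the dashed line, and 3 lie below 0 on the y axis.

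At 2 h most members were within 1.5-fold of 0 h, and the others had gone both ways. In NB, 14 were at least 1.5-fold above 0 h, 14 at least 1.5-fold below and 122 in between, and 2.57% and 2.58% of all genes were that far above and below. In xlg1,4 (replicates 1 and 2) 31 were that far above and 27 below, against 2.77% and 2.6% of all genes. The members also varied more among the NB 0 h libraries than all genes did, as given below. These fold counts take no account of that. Of the 14 that were higher in NB, 12 were above 0 h in xlg1,4 as well, and of the 14 that were lower in NB, 11 were below. Of all 17609 genes, 10883 were above 0 h in xlg1,4 and 6726 below. As labelled, 6 members were at least 1.5-fold above and 43 at least 1.5-fold below in xlg1,4 (1.82% and 1.6% of all genes). Of the 14 higher in NB, 7 were then above 0 h, and of the 14 lower in NB, 10 were below. Shares over all genes were not counted for these as labelled. The members' median log2 change at 2 h was 0.06 in NB and 0.02 in xlg1,4, and as labelled -0.38 in xlg1,4. edgeR with 14 libraries called 12 members higher (0.509% of all genes) and 5 lower (0.803%) at 2 h in xlg1,4. With 17 libraries it called 0 members and 0.0% of all genes, 8 members were lower (4.7%) and 0 higher (3.57%) at an unadjusted p under 0.05, and DESeq2 called 0 of 137 either way (0.036% of all genes lower and 0.0% higher). In NB, 4 were called lower (3.18%) and 9 higher (2.63%) with 14 libraries. With 17 libraries 0 were called lower (0.0589%) and 0 higher (0.0353%), 1 each way at an unadjusted p under 0.05 (7.0% and 5.62%), and DESeq2 called 0 of 137 either way (1.4% lower and 1.12% higher).

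Os09g0526600 had the smallest p of the members called higher at 2 h with 14 libraries. It read 14.9 and 15.9 CPM at 0 h, 47.2 and 47.6 CPM at 2 h and 6.35 and 5.70 CPM at 24 h in xlg1,4. In NB it read 22.0, 22.8 and 34.1 CPM, then 46.9, 44.8 and 41.4 CPM, then 4.18 and 5.65 CPM. In these libraries the 2 h values were above those of 0 h in both genotypes without overlap, while xlg1,4 2 h replicate 3, at 4.997 CPM, was below every xlg1,4 0 h library. Its log2 change at 2 h in xlg1,4 was 1.55 (SE 0.20, edgeR adjusted p = 0.0038) with 14 libraries and 0.57 (SE 0.61, adjusted p = 0.79) with 17. Os05g0407100 read 50.2 and 52.3 CPM at 0 h, 109 and 140 CPM at 2 h and 10.1 and 10.3 CPM at 24 h in xlg1,4, with 78.5 CPM in 0 h replicate 3 and 12.8 CPM in 2 h replicate 3. Its log2 change at 2 h was 1.21 with 14 libraries (SE 0.17, edgeR adjusted p = 0.0070) and 0.47 with 17 (SE 0.70, adjusted p = 0.86). In NB its 2 h libraries (103, 104 and 91.1 CPM) overlapped those of 0 h (73.1, 81.0 and 105 CPM).

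Of the members called lower at 2 h in the mutant with 14 libraries, Os06g0662200 read 118 and 151 CPM at 0 h, 74.4 and 60.9 CPM at 2 h and 27.1 and 24.2 CPM at 24 h in xlg1,4, with 81.0 CPM in 0 h replicate 3 and 21.8 CPM in 2 h replicate 3. Its log2 change at 2 h was -1.06 with 14 libraries (SE 0.16, edgeR adjusted p = 0.0082) and -1.22 with 17 (SE 0.50, adjusted p = 0.59). NB overlapped over the same interval, at 111, 82.9 and 106 CPM and then 90.5, 109 and 103 CPM, before 27.5 and 28.5 CPM at 24 h. Os01g0246400 read 125 and 107 CPM, then 35.1 and 35.3 CPM, then 11.2 and 7.40 CPM in xlg1,4. There 0 h replicate 3 read 32.9 CPM, below both of these 2 h libraries, and 2 h replicate 3 read 8.73 CPM. Its log2 change at 2 h was -1.80 with 14 libraries (SE 0.28, edgeR adjusted p = 0.0083) and -1.82 with 17 (SE 0.89, adjusted p = 0.61). In NB it read 76.1, 101 and 92.0 CPM, then 52.2, 83.8 and 86.0 CPM, then 4.38 and 8.03 CPM, with 0 h and 2 h overlapping. Whether the genotypes differ at 2 h was not tested, since NB values chose the genes.

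Side by side, the genotypes' levels were close for most members. The median log2 ratio of xlg1,4 (replicates 1 and 2) to NB was -0.07 at 0 h, -0.09 at 2 h and 0.11 at 24 h, and over all genes it was 0.00, 0.08 and -0.04. At 0 h, 10 members were at least 2-fold higher and 13 at least 2-fold lower in xlg1,4 (0.31% and 0.48% of all genes). At 24 h these were 2 and 3 (0.13% and 0.23%). As labelled the medians were 0.00, -0.47 and -0.95, and over all genes 0.02, 0.09 and -0.02. At 24 h as labelled, 0 members were that far higher and 72 that far lower in xlg1,4, and the share over all genes was not counted. The NB mean there includes replicate 3, in which 148 of 150 members were above both other NB 24 h libraries. The choice of members by those other libraries favours that order. At 24 h, in 32 members both xlg1,4 libraries lay above both NB libraries (13.3% of all genes) and 13 below (19.0%). At 0 h these counts were 38 above (20.6%) and 44 below (17.2%), and at 2 h 24 above (28.9%) and 34 below (13.9%). The choice favours low NB values at 24 h, so these counts describe levels only.

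The 24 h libraries of one genotype differed among the members with the most reads. Among the 18 members of at least 1000 CPM at 0 h, 17 were higher in NB 24 h replicate 2 than in replicate 1, with a median ratio of 1.68. In xlg1,4 2 of the 18 were higher in replicate 2, with a median ratio of 0.768. The summed level of these 18 was 0.654% and 1.02% of counts in the NB libraries and 1.13% and 0.825% in those of xlg1,4. In the 83 members of 10 to 100 CPM the median ratio was 1.06 in NB and 0.856 in xlg1,4. These counts and ratios were not made for other genes of the same level, so they cannot be called particular to the members.

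A few members were uneven among replicates. In 4 members the NB 24 h libraries overlapped the early ones, and in 5 one early NB library exceeded the median of the 6 by more than 5 times. The coefficient of variation among the NB 0 h libraries was above 100% in 5 members and above 50% in 20, with a median of 17.2% over the 150 and 9.08% over all genes. Os02g0765400 read 14.6, 175 and 62.0 CPM in NB at 0 h, 13.2, 31.0 and 0.176 CPM at 2 h and 9.02 and 0.0554 CPM at 24 h. In xlg1,4 it read 0.0509 and 0.411 CPM, then 0.26 and 128 CPM, then 0.00 and 5.83 CPM, and the ranges of all 3 times overlapped in xlg1,4. Os08g0473600 was as scattered, at 1.42, 35.2 and 2.12 CPM in NB at 0 h and 5.17 and 0.111 CPM at 24 h (9.57 CPM in replicate 3). In xlg1,4, replicate 3 included, it read 0.00, 0.257 and 5.77 CPM, then 0.052, 10.7 and 22.2 CPM, then 0.063 and 1.09 CPM. With 14 libraries Os02g0765400 and Os08g0473600 were the members that fell least in xlg1,4 from 0 h to 24 h. Their fitted log2 changes, not past the threshold, were 3.56 (SE 3.54, edgeR adjusted p = 0.49) and 2.06 (SE 4.25, adjusted p = 0.76). With 17 libraries these were -3.49 (edgeR adjusted p = 0.37) and -1.74 (adjusted p = 0.69), where the members' median was -2.15. In all, 136 members were called lower against both early times in xlg1,4 with 14 libraries (6.54% of all genes), 7 against one of them (9.46%) and 7 against neither. With 17 libraries edgeR called no member against either.

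By the rice identifier scheme, in which the first digits name the chromosome, members came from all 12 chromosomes. They were 24 on chromosome 3, 23 on chromosome 1 and between 6 and 14 on each other chromosome. That was 0.574% to 1.29% of the genes past the expression minimum on a chromosome, lowest on chromosome 2 and highest on chromosome 9. In the table, 8 members, in 4 pairs, stood within 3 lines of another member. This was not compared with sets of other genes.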

How the data were processed

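RNA was extracted with an RNeasy plant kit and made into standard Illumina libraries, per the labels' protocols. The deposited rice table holds counts of reads per gene, whole numbers with no normalization. The submitters' processing notes name STAR and IRGSP-1.0. The counting tool, its strand setting and the versions used are not stated in the labels or notes, and reads shared by near-identical or overlapping genes may be split. Of 18 rice columns 17 were used and 1 was empty. The other 3 tables, of other species, were not used.

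CPM were computed on column totals. edgeR 4.0.16 in R 4.3.3 was run on all rice libraries with filterByExpr (minimum count 10, minimum total 15), TMM scaling, 1 mean per genotype and time, and quasi-likelihood F-tests adjusted by the Benjamini-Hochberg method (threshold 0.05). All 150 members passed the filter. The SE printed with an edgeR log2 change was derived from the test, as the absolute change divided by the square root of F. The procedure was also run on simulated counts, for xlg1,4 at 24 h against 0 h. No simulated library was given the levels of another label, so that run cannot speak to the effect of such libraries. Alternatives were DESeq2 1.42.0, its size factors in edgeR, no filter, a replicate block, only the groups compared, and each library left out. A fit without the 3 libraries set apart was added after the data were seen.

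The members and lists were chosen with earlier results of these data known. Named members were the highest scores, the smallest p-values among members called in xlg1,4 at 24 h, and those that fell least there. The last 2 kinds were taken from the 14 libraries, since edgeR called no member there with 17. As rice identifiers are not paired with names in the files used here, at most 2 rises and 2 falls are named per comparison, and the word-based gene lists and tissue markers could not be applied. The members named at 2 h, by smallest p-value in each direction, were chosen after their values were seen, as was the adjacent gene.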

Additional observations from a re-analysis of the deposited data

How the results depend on the processing

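With all 17 libraries the members called lower in xlg1,4 numbered 0 against 0 h and 0 against 2 h, and the members called at 2 h against 0 h also 0. In NB they numbered 1 against 0 h (0.0118% of all genes) and 0 against 2 h (0.0%). In that order, DESeq2 gave 102 (6.34% of all genes), 1 (0.0296%), 0, 9 (0.96%) and 10 (0.787%). Fitting only the groups compared gave 140 (5.05%), 0 (0.0%), 0, 0 and 0. The 14 libraries gave 142 (13.1%), 137 (9.48%), 17 (0.509% higher and 0.803% lower), 144 (10%) and 142 (6.87%). DESeq2 size factors and no low-count filter left each count as it was. Leaving out 1 library in turn gave 0 to 132 members in xlg1,4 against 0 h (6.98% of all genes at the highest). Against 2 h it gave 0 to 70 (3.15%), and at 2 h against 0 h it gave 0. In NB it gave 0 to 137 (4.74%) and 0 to 124 (2.26%). The highest values came without NB 24 h replicate 3, except 70, which came without xlg1,4 2 h replicate 3. A library left alone in its group is assumed to vary like the others.

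With a replicate block the counts were 0, 0, 0, 0 and 0. The replicate numbers were not taken as pairs, since 5 of 40 pairs of same-numbered libraries had deviations correlated above 0.1 (median -0.04).

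The fitted log2 change of Os02g0765400 from 0 h to 24 h in xlg1,4 turned from negative to 3.56 in the 14 libraries and 3.55 without xlg1,4 0 h replicate 3, and that of Os08g0473600 to 2.06 in both. Leaving out 1 library in turn gave -12.12 to 3.55 and -4.77 to 2.06. The cause was not tested. Of the other named values, 190 kept their direction and side of the threshold, 40 passed it, and 6 kept their direction under DESeq2, which gave them no adjusted p. Of the 150 members, 108 were chosen again with all 3 NB 24 h libraries in the mean, 144 with 0.5 CPM added, 134 with a minimum of 10 CPM and 148 with TMM-scaled CPM. Groups of 2 and 3 libraries limit the precision of every value here.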
